A study of Mus musculus with 56 samples.

Results

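Clostridiales without a named family are the bacterial sequence variants that were placed in the order Clostridiales but carry no family name. They were chosen from the taxonomy alone, as every amplicon sequence variant (ASV) whose order is Clostridiales and whose family field is empty or holds only a space. This gave 188 of 938 ASVs, of 611 in the whole order. The 131 ASVs with an empty family field are called unclassified here, and the 57 with a blank one are called unnamed. What separates both ways of writing is not given in the sources used here, so they were kept apart throughout. No member has a genus name either.

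The 16S rRNA gene was sequenced from the contents of the small intestine (SI) and the large intestine (LI) of 28 male mice, with 1 library per mouse and site. Mice lacking the melanocortin-4 receptor (MC4R) were fed either a Western diet (KO-WD, n = 8) or the normal diet (KO-ND, n = 8), and so were wild-type C57BL/6 J animals (WT-WD, n = 6, and WT-ND, n = 6). The diets began at an age of 10 weeks and lasted 12 weeks, and before that all mice had eaten the same chow and then the normal diet in the same room. The wild-type mice were purchased and the knockout mice came from a separately generated line, so genotype and origin of the mice cannot be told apart. MC4R acts in the brain to curb appetite, and its loss leads to overeating and obesity.

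Clostridiales are anaerobic, often spore-forming Firmicutes, and are among the main residents of the mammalian large intestine. Their best-known gut families, Lachnospiraceae and Ruminococcaceae, ferment plant fibre and mucus sugars, and several of their species release butyrate, a fuel of the colon epithelium. Many gut Clostridiales have not been cultured, and short 16S reads often place them in the order without reaching a family.

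Of the 188 ASVs, 170 had counts, 119 unclassified and 51 unnamed, and the other 18 were at 0 in every library. Together they held 34397 counts, 2.10% of all counts, of which the unclassified ASVs made up 1.24% and the unnamed ASVs 0.867%. The order as a whole held 20.1%. Library totals were 22550 to 35236 counts (median 29721), and a share below is always a percentage of the library total. A share is relative: fewer of these bacteria and more of the others cannot be told apart in such data.

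Most of these ASVs belonged to few mice. Of the 170 with counts, 93 (54.7%) were found in 1 mouse only, against 39.3% of the 694 other ASVs with counts. Only 14 (8.24%) were found in at least 10 of the 28 mice, against 18.6% of the other ASVs. Between genotypes, with 16 KO and 12 WT mice, 68 (40.0%) were found in KO mice only, 67 (39.4%) in WT mice only and 35 (20.6%) in both. Of the other ASVs, 40.5% were found in KO mice only, 32.9% in WT mice only and 26.7% in both. Of the unnamed ASVs, 7 of 51 (13.7%) were found in WD mice only and 32 (62.7%) in ND mice only. The unclassified ASVs were split evenly, with 40 of 119 (33.6%) in WD mice only and 43 (36.1%) in ND mice only, and so were the other ASVs (24.4% and 25.4%). These counts describe the set and were not tested.

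**Figure D1:**
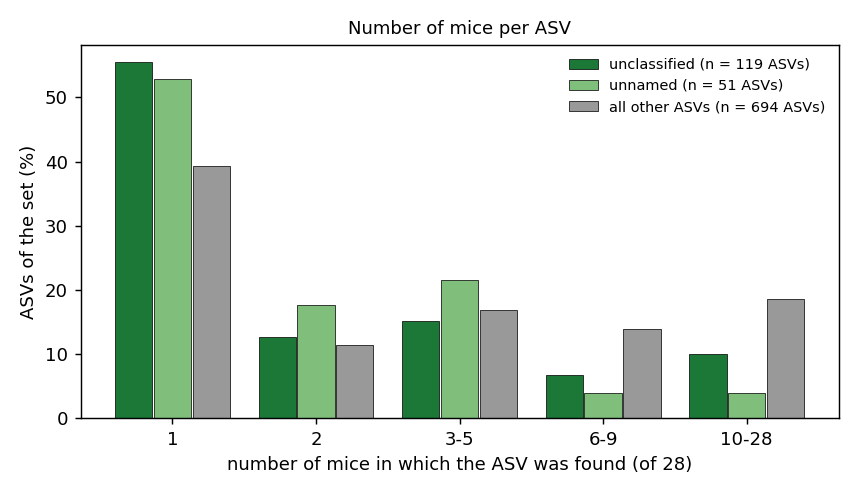
Percentage of ASVs (vertical axis) by the number of mice in which an ASV had counts in either site (horizontal axis, of 28 mice), for the 119 unclassified and 51 unnamed Clostridiales ASVs and the 694 other ASVs with counts. The bars for 1 mouse stand at 55.5% and 52.9% for the unclassified and unnamed ASVs and at 39.3% for the other ASVs.

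In the LI, the unclassified sum passed the test in no comparison of groups, and the unnamed sum was lowest on average in KO-WD mice. The unclassified ASVs summed to 1.58% to 3.78% (median 2.24%) in KO-WD, 0.803% to 3.45% (median 2.91%) in KO-ND, 1.46% to 4.26% (median 2.64%) in WT-WD and 0.808% to 3.64% (median 1.10%) in WT-ND mice. All 4 ranges overlapped. The unnamed ASVs summed to 0.0168% to 0.876% (median 0.123%) in KO-WD, 0% to 5.72% (median 1.17%) in KO-ND, 0.541% to 3.64% (median 1.15%) in WT-WD and 1.13% to 5.09% (median 1.34%) in WT-ND mice. All 8 KO-WD libraries lay below all 6 WT-ND libraries. The KO-ND libraries spanned the widest range: replicates 1 and 8 held 5.14% and 5.72%, while replicate 4 held none and replicate 7 held 0.0776%.

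Sums were tested beside all other families with edgeR's quasi-likelihood test, and a call is a Benjamini-Hochberg adjusted p under 0.05. In the LI of KO-WD against WT-ND mice, 9 of 26 families tested were called (34.6%), and the unnamed sum was among them. It averaged 0.328% ± 0.350 (SD, n = 8) in KO-WD and 2.00% ± 1.54 (n = 6) in WT-ND mice, with a log2 fold change of -2.61 ± 0.84 (SE) and an adjusted p of 0.0228. Without WT-ND replicate 4, the highest WT-ND library, the adjusted p was 0.0717. The unclassified sum averaged 2.45% ± 0.796 in KO-WD and 1.65% ± 1.12 in WT-ND mice, a log2 fold change of 0.57 ± 0.49 that did not pass (adjusted p = 0.407).

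Against WT-WD mice, where 35.7% of 28 families were called, the unnamed sum of KO-WD mice lay at the threshold. It averaged 0.328% ± 0.350 in KO-WD and 1.57% ± 1.15 (n = 6) in WT-WD mice, a log2 fold change of -2.26 ± 0.89 with an adjusted p of 0.0504. The exact rank-sum test gave an adjusted p of 0.0373 and DESeq2 one of 0.0331. KO-WD against KO-ND mice, with 0 of 28 families called, gave a log2 fold change of -2.65 ± 1.12 for the unnamed sum, which did not pass (adjusted p = 0.402). In KO-ND mice it averaged 2.06% ± 2.21 (n = 8), a spread as large as the mean. KO-ND and WT-WD mice did not pass against WT-ND mice for either sum in the LI. The log2 fold changes were 0.59 ± 0.50 (unclassified) and 0.04 ± 1.04 (unnamed) for KO-ND mice, and 0.73 ± 0.51 and -0.35 ± 0.59 for WT-WD mice, with adjusted p-values between 0.312 and 0.969. The families called there were 34.5% of 29 for KO-ND and 8.70% of 23 for WT-WD mice.

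**Figure D2:**
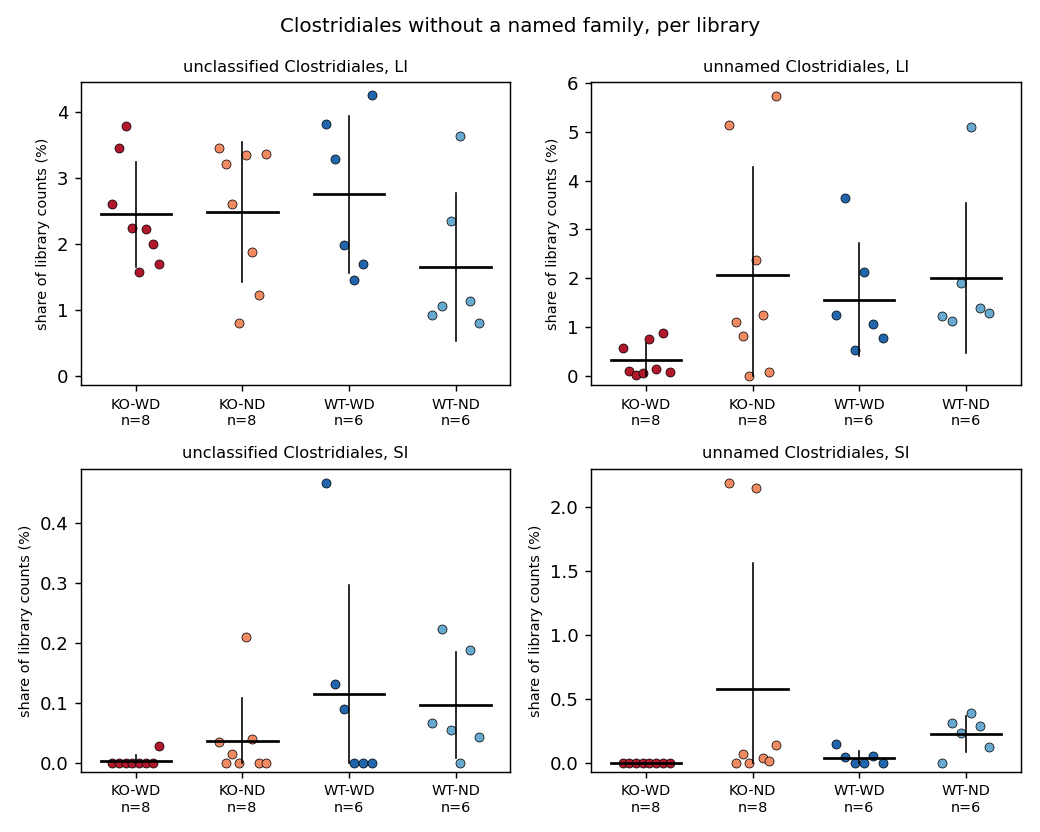
Share of library counts (%, vertical axis) held by unclassified (left) and unnamed (right) Clostridiales in the LI (top) and SI (bottom), with 1 point per library, the group mean as a horizontal line and the SD as a vertical line that stops at 0. In the LI, the 8 KO-WD libraries held at most 0.876% of unnamed Clostridiales and the 6 WT-ND libraries at least 1.13%.

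In the SI, both sums were close to 0 in KO-WD mice. The unnamed ASVs had no count in any of the 8 KO-WD libraries, which allows a share of up to 0.00145% of their pooled counts. They summed to 0% to 2.19% (median 0.0544%) in KO-ND, 0% to 0.145% (median 0.0220%) in WT-WD and 0% to 0.392% (median 0.261%) in WT-ND mice. In KO-ND mice, replicates 1 and 5 held 2.19% and 2.15%, and the other 6 libraries held at most 0.143%. The unclassified ASVs had counts in 1 of 8 KO-WD libraries (replicate 8, 0.0287%), 4 of 8 KO-ND libraries (up to 0.210%), 3 of 6 WT-WD libraries (up to 0.466%) and 5 of 6 WT-ND libraries (up to 0.223%).

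Against WT-ND mice, both SI sums fell in KO-WD mice, where 6 of 16 families tested were called (37.5%). The unnamed sum, 0 in all KO-WD libraries, averaged 0.225% ± 0.141 (n = 6) in WT-ND mice, so it was at least 155-fold lower in KO-WD mice (adjusted p = 0.00247). Here and below, such bounds set 3 counts over the pooled libraries of the group that has none. A sum or ASV at 0 in every library of a group or site passed the low-share filter through the other one alone. Here and below, its direction thus came with passing the filter, and its adjusted p is given as a description. The unclassified sum averaged 0.00359% ± 0.0101 in KO-WD and 0.0962% ± 0.0885 in WT-ND mice, a log2 fold change of -4.56 ± 1.76 (adjusted p = 0.0363). This call was lost with DESeq2 (adjusted p = 0.121), without the filter on low shares (0.0781) and in 8 of 14 fits that left out 1 library: WT-ND replicates 2 and 5 and KO-WD replicates 1, 2, 3, 4, 6 and 7, at up to 0.0692. The exact rank-sum test kept it (adjusted p = 0.0120).

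SI libraries of KO-WD mice were also the shallower ones, with totals of 23790 to 28774 against 29997 to 30726 in WT-ND mice. Thinned to 22550 counts each, WT-ND libraries held 2.83 unnamed ASVs on average. KO-WD libraries had none before thinning, so they could only hold 0 after it. For unclassified ASVs the means were 0.125 in KO-WD and 1.83 in WT-ND libraries. Whether depth played a part was not tested. The order as a whole did not share the low level, but Lachnospiraceae and Ruminococcaceae were also lower on average. Lachnospiraceae held 0.352% ± 0.699 in the SI of KO-WD and 2.87% ± 2.17 in that of WT-ND mice (adjusted p = 0.0719, exact rank-sum test 0.0213). Ruminococcaceae held 0.0178% ± 0.0277 and 0.710% ± 0.583 (adjusted p = 0.0346, exact rank-sum test 0.0618). All Clostridiales together held 15.6% ± 10.3 in the SI of KO-WD and 5.25% ± 2.77 in that of WT-ND mice, and Clostridiaceae, the family of *Clostridium*, rose there to 15.2% ± 10.3, against 1.33% ± 1.62 in WT-ND mice (log2 fold change 3.52 ± 0.99, adjusted p = 0.00540).

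Against KO-ND mice, the unnamed SI sum of KO-WD mice was at least 396-fold lower (0.575% ± 0.985 in KO-ND mice, n = 8, adjusted p = 0.00708) and was the only one of 19 families called (5.26%). The exact rank-sum test did not call it (adjusted p = 0.0664), and 2 of the 8 KO-ND libraries held most of its counts. Without KO-ND replicate 1 (2.19%) the bound was 238-fold, but that still rested on replicate 5 (2.15%). Every other KO-ND library held at most 0.143%. The unclassified sum did not pass (log2 fold change -3.21 ± 1.80, adjusted p = 0.215), but passed without KO-ND replicate 5 (0.0370). Against WT-WD mice, where 55.6% of 18 families were called, the unclassified sum was 0.00359% ± 0.0101 in KO-WD and 0.115% ± 0.181 (n = 6) in WT-WD mice, a log2 fold change of -4.82 ± 1.91 with an adjusted p of 0.0315. The exact rank-sum test gave an adjusted p of 0.161 and DESeq2 one of 0.150. Of 14 fits that left out 1 library, 5 kept the call. It was lost without KO-WD replicate 2, 4, 5, 6 or 7 (up to 0.0599), and without any one of the 4 libraries with counts (KO-WD replicate 8 and WT-WD replicates 1, 2 and 3) the sum no longer reached the filter. The unnamed sum was too rare in these 14 libraries to be tested. Neither sum passed in KO-ND or WT-WD against WT-ND mice in the SI, where 0 of 15 and 0 of 20 families were called. The unnamed sum had log2 fold changes of 1.35 ± 1.76 for KO-ND and -2.46 ± 1.88 for WT-WD mice, and the unclassified sum of -1.35 ± 1.64 and 0.26 ± 1.84.

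The effect of diet was also set against genotype within each site. The genotype by diet interaction did not pass for either sum. In the SI the interaction was -3.48 ± 2.62 on the log2 scale for the unclassified sum (adjusted p = 0.742), and for the unnamed sum the unadjusted p was 0.00840 and the adjusted p 0.156. In the LI the adjusted p-values were 0.903 and 0.662. Of all families, 0 of 22 passed in the SI and 3.33% of 30 in the LI.

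All 28 mice held more unclassified Clostridiales in the LI than in the SI. The differences of LI minus SI within a mouse ran from 1.58 to 3.78 percentage points in KO-WD, 0.803 to 3.42 in KO-ND, 1.46 to 4.26 in WT-WD and 0.765 to 3.64 in WT-ND mice. The unnamed sum was higher in the LI in 8 of 8 KO-WD, 7 of 8 KO-ND, 6 of 6 WT-WD and 6 of 6 WT-ND mice, and the remaining KO-ND mouse had none in either site. With the mouse as a block, the unclassified sum was higher in the LI by 10.88 ± 1.26 on the log2 scale in KO-WD mice (adjusted p = 1.11e-06), 7.91 ± 1.29 in KO-ND mice (1.01e-05), 6.89 ± 1.67 in WT-WD mice (0.000197) and 4.28 ± 1.29 in WT-ND mice (0.0353). The unnamed sum was at least 226-fold higher in the LI of KO-WD mice (adjusted p = 0.00123), and its log2 difference was 3.57 ± 1.20 in KO-ND mice (0.0114), 6.91 ± 2.00 in WT-WD mice (0.00174) and 3.42 ± 1.11 in WT-ND mice (0.0391). The families called in either direction were 74.1% of 27 in KO-WD, 74.1% of 27 in KO-ND, 65.4% of 26 in WT-WD and 38.1% of 21 in WT-ND mice. The median log2 differences over all families tested were 6.50, 5.09, 1.59 and 2.32 in these groups, so a rise towards the LI was not particular to these sums. Both WT-ND calls were lost without replicate 3, 5 or 6 (adjusted p up to 0.0991), and the call for the unnamed sum in KO-ND mice was lost with DESeq2 (0.255).

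SI finds were mostly seen again in the LI of the same mouse. Of 68 finds of a member ASV in an SI library, 53 (77.9%) had counts in the LI of the same mouse, while the same ASV had counts in the LI of 44.0% of the other mice of its group. For unclassified ASVs these values were 71.9% and 57.4%, for unnamed ASVs 83.3% and 32.9%, and for the other ASVs of the community 70.6% and 52.3%. Of the 170 ASVs with counts, 130 (76.5%) were found in the LI only, 9 in the SI only and 31 in both, against 56.3% found in the LI only among the other ASVs.

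ASV_026, an unclassified ASV, was the most abundant unclassified ASV of the LI (0.671% on average over the 28 libraries) and was found in 15 of 16 KO mice and in 1 of 12 WT mice. In the LI it held 0% to 2.27% (median 1.27%) in KO-WD, 0.405% to 2.25% (median 1.20%) in KO-ND, 0% to 0.213% in WT-WD and 0% in all WT-ND libraries. The KO-WD mouse without it was replicate 5, and the WT-WD mouse with it was replicate 6. It was at least 718-fold higher in KO-WD than in WT-ND mice (adjusted p = 0.000287) and at least 679-fold higher in KO-ND than in WT-ND mice (adjusted p = 1.85e-05). ASV_026 passed the filter there through the KO libraries alone, so both directions came with it and both adjusted p-values are a description. Against WT-WD mice the log2 fold change of KO-WD mice was 5.06 ± 1.99 (adjusted p = 0.0442). This last call held only without WT-WD replicate 6 or KO-WD replicate 5 and was lost in the other 12 fits that left out 1 library (adjusted p up to 0.0764), while DESeq2 (0.00535) and the exact rank-sum test (0.0192) kept it.

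ASV_026 made up 47.1% of the pooled unclassified counts in the LI of KO-WD and 45.4% in that of KO-ND mice. Without it, the unclassified LI sum averaged 1.25% ± 0.534 in KO-WD, 1.36% ± 0.714 in KO-ND, 2.71% ± 1.14 in WT-WD and 1.65% ± 1.12 in WT-ND mice, values given as a description with no test. In WT mice no single ASV led in this way: the largest shares of the pooled unclassified LI counts were 10.1% (ASV_083) in WT-WD and 14% (ASV_125) in WT-ND mice. In the SI, the single KO-WD library with unclassified counts held only ASV_026.

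ASV_027, an unnamed ASV, held the largest part of the pooled unnamed LI counts in KO-WD, WT-WD and WT-ND mice. In the LI it held 0% to 0.690% (median 0.0698%) in KO-WD, 0% to 1.39% (median 0.230%) in KO-ND, 0.313% to 3.18% (median 0.808%) in WT-WD and 0.348% to 4.86% (median 0.748%) in WT-ND mice. It made up 58.4% of the pooled unnamed LI counts in KO-WD, 19.1% in KO-ND, 81.8% in WT-WD and 71.3% in WT-ND mice. In the LI of KO-WD mice it averaged 0.182% ± 0.245, against 1.45% ± 1.72 in WT-ND mice, a log2 fold change of -2.98 ± 1.17 (adjusted p = 0.0401). That call was lost with TMM factors (0.127) and in 7 of 14 fits that left out 1 library, WT-ND replicates 3 and 4 and KO-WD replicates 2, 4, 6, 7 and 8, at up to 0.171. In the SI it was at 0 in all 16 KO libraries, while 2 of 6 WT-WD and 5 of 6 WT-ND libraries held it (WT-ND mean 0.0994% ± 0.136). It was thus at least 68.4-fold lower in the SI of KO-WD mice (adjusted p = 0.00213) and at least 72.3-fold lower in that of KO-ND mice (adjusted p = 0.00277) than in WT-ND mice. WT-ND replicate 4 (0.369%) held most of these counts, and without it the bounds were 31.2-fold and 33.0-fold. Both calls were kept in each of the 14 fits per comparison that left out 1 library. ASV_027 stayed at 0 in the KO libraries of every such fit, so these fits could not change its direction.

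**Figure D3:**
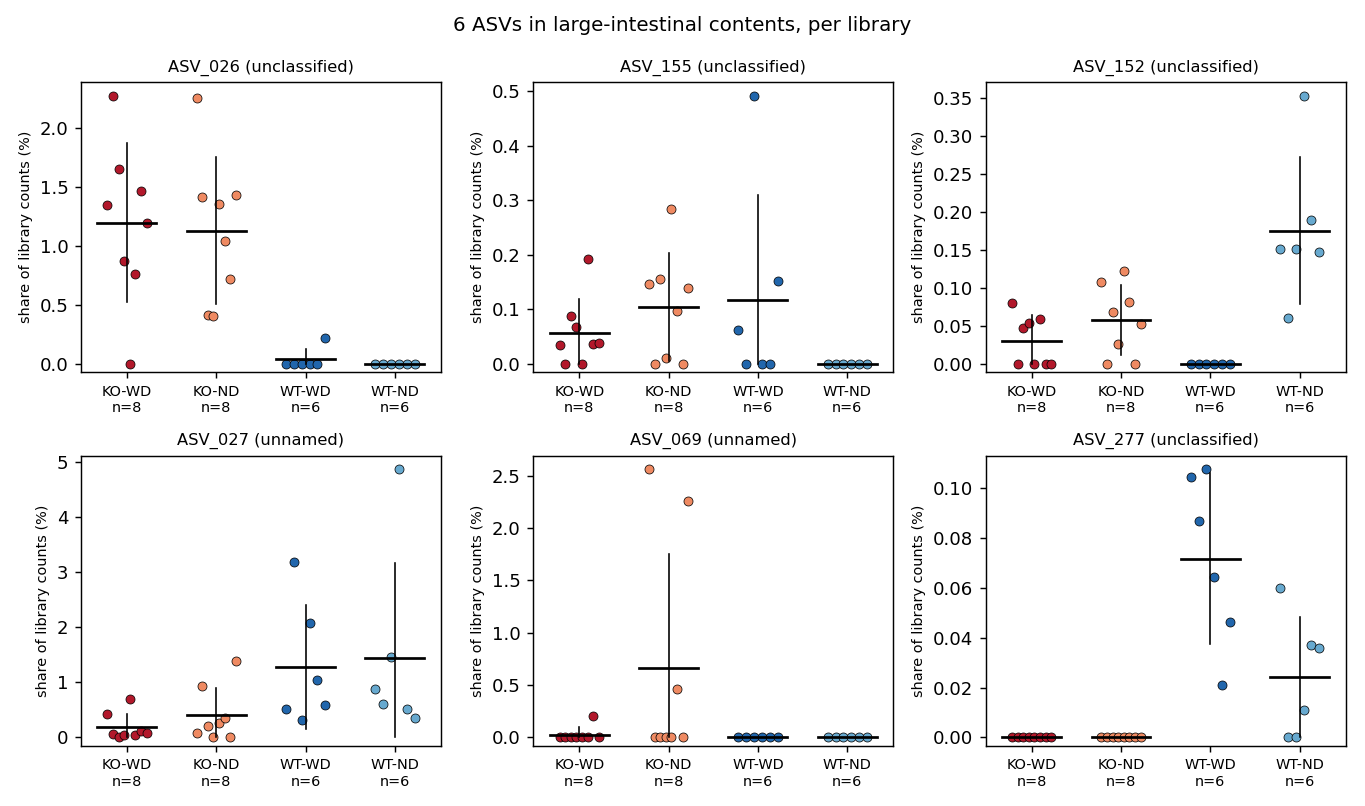
Share of library counts (%, vertical axis) of 6 ASVs in the LI, with 1 point per library, the group mean as a horizontal line and the SD as a vertical line that stops at 0. ASV_026 reaches 2.27% in KO-WD and 2.25% in KO-ND mice and at most 0.213% in WT-WD mice, while ASV_277 is at 0 in all 16 KO libraries.

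Single ASVs were tested in the same way over all ASVs. In the LI of KO-WD against WT-ND mice, 17 members passed the filter on low values and 8 were called, 3 higher and 5 lower (47.1%). Of all 188 ASVs tested there, 90 were called (47.9%), 28.7% higher and 19.1% lower. The median log2 fold change was -2.53 over the 17 members and 0.04 over all ASVs tested. Among KO-ND against WT-ND mice, 9 of 22 members were called, 4 higher and 5 lower (40.9%), against 52.2% of 182 ASVs (30.8% higher and 21.4% lower). Among KO-WD against WT-WD mice, 5 of 17 were called, 3 higher and 2 lower (29.4%), against 45.1% of 182 (27.5% higher and 17.6% lower). Of these called members, 6 of 8, 8 of 9 and 3 of 5 were at 0 in every library of 1 group and so reached the filter through the other group alone, and the counts are a description. Of WD against ND mice of the same genotype, 1 of 17 members was called, lower, in WT mice (1.33% of 150 ASVs, 0.667% lower), and 0 of 25 in KO mice (2.66% of 188). In that last comparison 2 members had an unadjusted p under 0.05 with edgeR, and the exact rank-sum test called 0 and limma on centred log ratios 1.

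Beside ASV_026, 2 unclassified ASVs were called higher in the LI of both KO groups than in that of WT-ND mice. ASV_155 held 0% to 0.193% (median 0.0369%) in KO-WD and 0% to 0.284% (median 0.117%) in KO-ND mice, with 6 of 8 libraries above 0 in each, and was at 0 in all WT-ND libraries. ASV_155 was thus at least 34.3-fold higher in KO-WD (adjusted p = 0.00689) and at least 62.4-fold higher in KO-ND mice (0.00549) than in WT-ND mice. Without KO-WD replicate 6 the first bound was 22.7-fold. Of the WT-WD libraries, 3 of 6 held it, at up to 0.491%. The WT-WD mean of ASV_155 (0.117% ± 0.193) was above those of KO-WD (0.0570% ± 0.0624) and KO-ND mice (0.104% ± 0.0990). ASV_196 had counts in 4 of 8 KO-WD libraries (0.103% to 0.229%) and 4 of 8 KO-ND libraries (0.0406% to 0.102%) and in no WT library. It was called in KO-WD against WT-ND mice (at least 56.0-fold, adjusted p = 0.0118), KO-ND against WT-ND mice (at least 18.9-fold, 0.0200) and KO-WD against WT-WD mice (at least 59.8-fold, 0.0125), but by the exact rank-sum test in none of these (adjusted p 0.138 to 0.143).

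ASV_200 and ASV_069 were among the 20 of 51 unnamed ASVs (39.2%) found in KO mice only, against 40.5% of the other ASVs. ASV_200 had counts in the LI of 2 of 8 KO-WD and 4 of 8 KO-ND mice and was at least 42.6-fold higher in the LI of KO-ND than of WT-ND mice (adjusted p = 0.0176, exact rank-sum test 0.138). ASV_069 reached 2.56%, 2.26% and 0.465% in the LI of KO-ND replicates 1, 8 and 6, and 0.203% in that of KO-WD replicate 7, and was at 0 in the other 24 LI libraries. ASV_079, which was not called, was found in the LI of these same 4 mice, at 2.45%, 1.72% and 0.323% in KO-ND replicates 1, 8 and 6 and 0.262% in KO-WD replicate 7. In the SI, ASV_069 had counts in 4 of 8 KO-ND libraries (0.0393% to 1.17%) and in no other group. It was at least 109-fold higher in KO-ND than in WT-ND mice (adjusted p = 0.00852) and at least 123-fold lower in KO-WD than in KO-ND mice (adjusted p = 0.0203), and neither was called by the exact rank-sum test (0.129 and 0.321). KO-ND replicate 1 (1.17%) held most of it, and without that library the bounds were 23-fold and 26.1-fold. ASV_137, also unnamed, came from 1 mouse alone: KO-ND replicate 5 held it at 1.25% in the LI and 1.22% in the SI.

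Beside ASV_027, the ASVs called lower in a KO group than in a WT group averaged at most 0.230% in that WT group. ASV_277 (unclassified) was at 0 in the LI of all 16 KO mice, while it held 0.0209% to 0.107% (median 0.0756%) in WT-WD and 0% to 0.0601% (median 0.0234%) in WT-ND mice. It was at least 55.4-fold lower in KO-WD than in WT-WD mice (adjusted p = 0.00264), at least 18.5-fold lower in KO-WD than in WT-ND mice (0.00617) and at least 19.1-fold lower in KO-ND than in WT-ND mice (0.00995). ASV_360 (unclassified) was likewise at 0 in all KO libraries and had counts in 3 of 6 WT-WD and 4 of 6 WT-ND mice. Its level was at least 20.0-fold lower in KO-WD (0.00617) and at least 20.6-fold lower in KO-ND mice (0.00995) than in WT-ND mice.

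ASV_379 (unnamed) was found in WT-ND mice only, in 5 of 6 LI libraries at up to 0.104%. It was at least 47.7-fold lower in KO-WD (adjusted p = 0.00315) and at least 49.1-fold lower in KO-ND mice (0.00336) than in WT-ND mice. WT-WD mice lacked it too. ASV_211 (unclassified) was at 0 in all KO-ND libraries and held 0.0391% to 0.161% (median 0.104%) in WT-ND mice (at least 80.7-fold lower in KO-ND mice, adjusted p = 0.000511). ASV_209 (unnamed) averaged 0.00349% ± 0.00988 in KO-WD and 0.146% ± 0.106 in WT-WD mice (log2 fold change -5.23 ± 1.76, adjusted p = 0.0197). On the normal diet it averaged 0.0198% ± 0.0214 in KO-ND and 0.0283% ± 0.0518 in WT-ND mice. ASV_125 (unclassified) averaged 0.0103% ± 0.0197 in KO-ND and 0.230% ± 0.239 in WT-ND mice (-4.42 ± 1.67, 0.0347), and ASV_171 (unclassified) 0.00443% ± 0.0125 in KO-WD and 0.143% ± 0.160 in WT-ND mice (-4.93 ± 1.94, 0.0409). Both of these calls rested on few libraries. That of ASV_125 was lost without any one of WT-ND replicates 3 and 4 and KO-ND replicates 1, 2, 6, 7 and 8 (adjusted p up to 0.0738). That of ASV_171 was lost in 9 of 14 such fits, for WT-ND replicates 3 and 4 and every KO-WD replicate but 2 (up to 0.0732), and by the exact rank-sum test (0.0897).

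ASV_152 (unclassified) was the 1 member called between diets in the LI of WT mice, where 3 members had an unadjusted p under 0.05 with edgeR. ASV_379 and ASV_508 (both unnamed), not called there, had counts in 5 of 6 and 4 of 6 WT-ND and in 0 of 6 WT-WD libraries. In the LI ASV_152 held 0% to 0.0803% (median 0.0235%) in KO-WD, 0% to 0.122% (median 0.0596%) in KO-ND, 0% in all WT-WD and 0.0606% to 0.352% (median 0.151%) in WT-ND mice. All 6 WT-WD libraries lay below all 6 WT-ND libraries, and it was at least 112-fold lower in WT-WD mice (adjusted p = 0.0274). Without WT-ND replicate 1 or 5 or WT-WD replicate 5 or 6 this call was lost (up to 0.0648), and the exact rank-sum test gave 0.108. In KO-WD mice it was at least 19.2-fold higher than in WT-WD mice (adjusted p = 0.0202, exact rank-sum test 0.142). In the SI it was the leading unclassified ASV of WT-ND mice, with counts in 4 of 6 libraries (up to 0.140%). It was at 0 in all KO-WD libraries there, at least 41.9-fold lower (adjusted p = 0.00449), and in KO-ND mice it was found in 1 of 8 libraries (log2 fold change -4.75 ± 1.93, adjusted p = 0.0455). The KO-ND call held in only 4 of 14 fits that left out 1 library, those without WT-ND replicate 1 or 4 or KO-ND replicate 3 or 5 (adjusted p up to 0.0890 in the others).

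**Figure D4:**
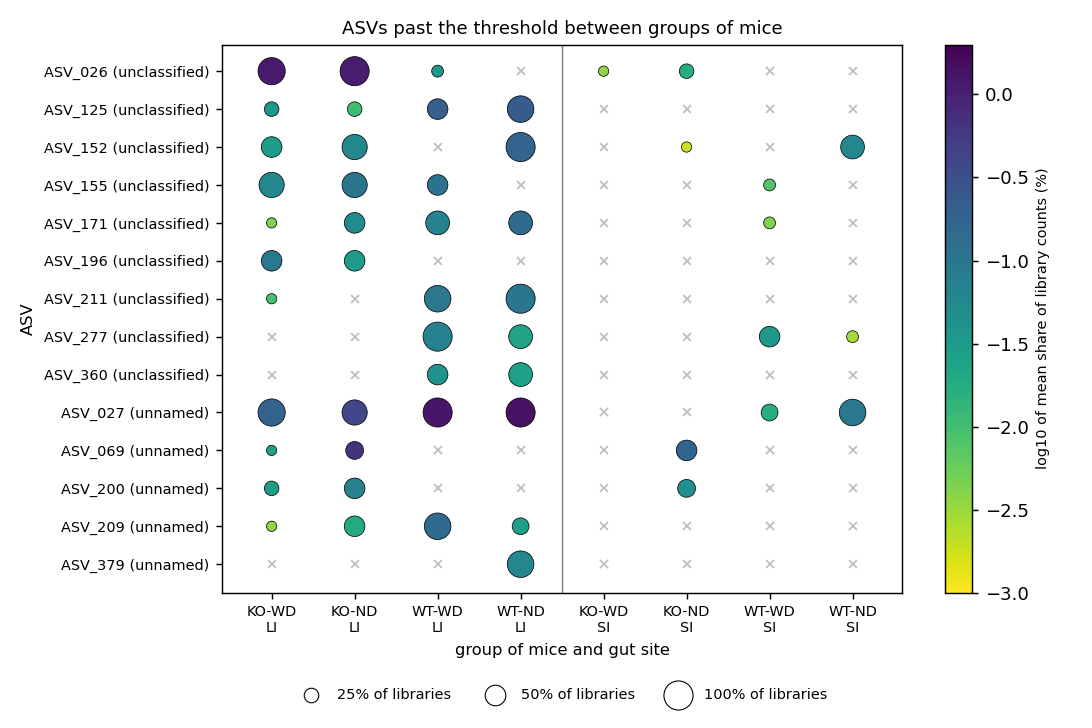
The 14 ASVs past the threshold in at least 1 comparison between groups of mice (rows), by group and gut site (columns). Circle size is the percentage of libraries with counts, colour the log10 of the mean share of library counts (%), and a cross marks a group with no count. By mean share (colour), ASV_026 is highest in both KO groups of the LI and ASV_027 in both WT groups of the LI.

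Few members reached the filter in the SI, and each that was called had counts in at least 4 libraries of 1 group and at most 1 library of the other. Passing the filter thus came with a difference, and the counts here describe these ASVs and are not read against the other ASVs. Both of the 2 tested in KO-WD against WT-ND mice were called, each lower, against 54.5% of 44 ASVs (43.2% lower). All 3 tested in KO-ND against WT-ND mice were called, 1 higher and 2 lower, against 40% of 50 ASVs (14% higher and 26% lower). In KO-WD against KO-ND mice 1 of 1 was called, lower (12.8% of 39 ASVs, 10.3% lower). In KO-WD against WT-WD mice, where 61.5% of 52 ASVs were called, none of the members passed the filter. Of the 3 tested in WT-WD against WT-ND mice 0 were called, as were 0 of all 66 ASVs. There, 1 member had an unadjusted p under 0.05 with edgeR, the exact rank-sum test called 0 and DESeq2 called 1.

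An ASV with counts in exactly 4 libraries of a fit fell below the filter without any one of them. This was so for ASV_152 (KO-WD against WT-ND) and ASV_069 (both comparisons) in the SI. In the LI it was so for every call of ASV_196, ASV_200 and ASV_360, for both calls of ASV_277 against WT-ND mice, and for ASV_152 in KO-WD against WT-WD mice.

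KO-ND against WT-ND mice and KO-WD against WT-WD mice share no library. In the LI, 3 ASVs were called in the same direction in both, ASV_026 and ASV_196 higher and ASV_277 lower in KO mice. They were 33.3% of the 9 called in the first and 60% of the 5 called in the second comparison. Over all ASVs, 61 were called in the same direction in both, 64.2% of the 95 and 74.4% of the 82 called. In the LI, ASV_196 was at 0 in all WT and ASV_277 in all KO libraries, and ASV_026 in all WT-ND libraries. There the direction came with passing the filter, so this overlap of members is a description.

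Every called difference of a member between sites was higher in the LI. Many of these members were at 0 in every SI library of the group and so reached the filter through the LI alone. For them a call could only be higher in the LI, and the counts here are a description. In KO-WD mice 4 of 8 tested were called (48.7% of 115 ASVs, 45.2% higher), in KO-ND mice 9 of 13 (64.8% of 122, 61.5% higher), in WT-WD mice 8 of 10 (44.2% of 120, 38.3% higher) and in WT-ND mice 7 of 14 (35.8% of 106, 34% higher). ASV_027 was called in all 4 groups. It was at least 126-fold higher in the LI than in the SI of KO-WD mice (adjusted p = 0.0250), at least 292-fold in KO-ND mice (0.00690), bounds of 75.8-fold without KO-WD replicate 5 and 189-fold without KO-ND replicate 8, and its log2 differences were 8.19 ± 1.67 in WT-WD mice (0.0179) and 4.24 ± 1.18 in WT-ND mice (0.0230). ASV_026 was higher in the LI by 9.85 ± 1.24 in KO-WD mice (0.000617) and by 9.0 ± 1.68 in KO-ND mice (0.00152). ASV_105, an unclassified ASV found in 26 of the 28 mice, more than any other member, was also called in all 4 groups. It averaged 0.0826% ± 0.0388 in the LI of KO-WD, 0.117% ± 0.0847 in that of KO-ND, 0.191% ± 0.227 in that of WT-WD and 0.0820% ± 0.0442 in that of WT-ND mice, and in the SI it had counts in 1 WT-WD library only. Its adjusted p was 0.0466, 0.00751, 0.0448 and 0.0203 in these groups.

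The other members called between sites were each called in 1 or 2 groups. ASV_083 was called in KO-WD and WT-WD mice (at least 181-fold, or 98.6-fold without KO-WD replicate 5, and at least 170-fold higher in the LI), and averaged 0.263% ± 0.353 in the LI of KO-WD, 0.0277% ± 0.0783 in that of KO-ND, 0.274% ± 0.255 in that of WT-WD and 0.124% ± 0.161 in that of WT-ND mice. ASV_124 and ASV_211 were called in WT-WD and WT-ND mice, ASV_134 and ASV_171 in KO-ND and WT-WD mice, ASV_152, ASV_155, ASV_170 and ASV_332 in KO-ND mice, ASV_209 in WT-WD mice, and ASV_360, ASV_379 and ASV_508 in WT-ND mice, with adjusted p-values of 0.00412 to 0.0495. Without 1 of the mice, the calls of ASV_027, ASV_105, ASV_124, ASV_211 and ASV_379 in WT-ND mice were lost for 3 or 4 of the 6 mice, at up to 0.0923. In KO-WD mice ASV_083 and ASV_027 were lost without replicate 1 or 7 (up to 0.0543) and ASV_105 without replicate 1, 4, 6, 7 or 8 (0.0817), and the calls of ASV_170 without replicate 3 and of ASV_332 without replicate 3 or 4 in KO-ND mice were lost too (0.0588). In WT-ND mice ASV_360 was lost without replicate 6 (0.0763) and ASV_508 without replicate 5 (0.0995), and either could be tested in only 2 of the 6 fits. In WT-WD mice ASV_105 was lost without any replicate but 1 (0.120) and ASV_171 without replicate 4, 5 or 6 (0.0969).

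Of the remaining abundant SI members, ASV_307 and ASV_373 (unclassified) came from 1 SI library each. WT-WD replicate 1 held ASV_307 at 0.122% and KO-ND replicate 5 held ASV_373 at 0.104%. ASV_267 (unnamed) was found in the SI of KO-ND replicate 5 (0.290%) and of WT-ND replicates 2 and 5 (0.0931% and 0.0814%).

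Of the 12 named families of Clostridiales on the comparison list, 3 to 8 passed the filter in each comparison. In the LI, Peptococcaceae, a family of strict anaerobes, was at 0 in all KO-WD libraries, against 0.700% ± 0.407 in WT-ND and 3.19% ± 1.60 in WT-WD mice (adjusted p = 0.000117 and 1.46e-05). It was the only listed family called in KO-WD and KO-ND against WT-ND mice and in KO-WD against WT-WD mice, of 7 tested in each. In WT-WD against WT-ND mice, Peptococcaceae and [Mogibacteriaceae] rose (log2 fold change 2.19 ± 0.58 and 2.64 ± 0.62, adjusted p = 0.0281 and 0.0252). Both calls were lost with TMM factors (0.0807 and 0.0785), with no filter (0.0538 each) and with all 4 groups in 1 fit (0.323 each). That of Peptococcaceae was also lost without WT-ND replicate 1, 3 or 6 or WT-WD replicate 3 or 5 (up to 0.0848), and that of [Mogibacteriaceae] without WT-ND replicate 3 or 6 (up to 0.0778). In KO-WD against KO-ND mice 0 of 6 passed. In the SI of KO-WD against WT-ND mice, Ruminococcaceae fell (-5.28 ± 1.97, adjusted p = 0.0346) while Clostridiaceae rose, of 3 tested. The Ruminococcaceae call was lost by the exact rank-sum test (0.0618) and without WT-ND replicate 2 or 5 or KO-WD replicate 2, 3, 4, 6 or 7 (up to 0.0692). Against WT-WD mice, Lachnospiraceae (-4.34 ± 1.21, 0.00307), Ruminococcaceae (-5.38 ± 2.01, 0.0277) and [Mogibacteriaceae] (at 0 in KO-WD mice, 0.00242) fell, of 4 tested. Between sites, 5 of 6 listed families were higher in the LI in KO-WD and in KO-ND mice, 4 of 8 were higher and 1 lower in WT-WD mice, and 1 of 7 was higher in WT-ND mice.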

How the data were processed

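Bacterial 16S rRNA gene amplicons (V3-V4) were sequenced from the SI and LI contents of 28 mice, in 56 libraries. The contents came from 4 cm of gut at the midpoint of each intestine. Per the authors' notes, FASTX-Toolkit 0.0.14 selected reads by their primers, Sickle 1.33 trimmed low quality, FLASH 1.2.11 joined the read pairs, DADA2 within QIIME 2 2021.4 took out chimeras and noise, and Greengenes 13_8 gave the taxonomy. The deposited table holds raw counts of 938 ASVs, not normalized, with a lowest count above 0 of 2. It holds no sequences, so none are shown.

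Counts were summed by family, with the unclassified and the unnamed Clostridiales as a sum each, and all 48 families and all ASVs were tested with edgeR 4.0.16 (quasi-likelihood, library totals as scaling) in R 4.3.3. A taxon was tested where its mean share reached 0.01% and 4 or more libraries of the fit had counts. Benjamini-Hochberg adjustment ran over all families or all ASVs of a comparison, with a threshold of 0.05. The SE is the log2 fold change divided by the square root of F. LI and SI were compared with the mouse as a block: deviations from the group means of the SI and LI libraries of one number correlated at 0.196 to 0.591, and 27 of 28 LI libraries were most like the SI library of their own number. A count of 0 was limited at 3 pooled counts, which covers counting error only. No pair of libraries was near-identical (largest Bray-Curtis similarity 0.874). The tests were tried on simulated data.

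Alternatives were TMM factors, DESeq2 1.42.0, limma 3.58.1 on centred log ratios (0.5 added), no filter and a filter at 0.1%. Others were all 4 groups in 1 fit, exact rank-sum tests, the replicate number as a block, no block between sites, and each library left out. The rank-sum tests went through all divisions of the libraries on midranks, with ranks from scipy 1.17.1. Python 3.11.15, pandas 2.3.3, numpy 2.4.6 and matplotlib 3.10.9 did the rest. The ASVs named are the 5 most abundant per kind and site and each one past the threshold. The members, lists and tests were chosen with earlier results of these data known.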

Additional observations from a re-analysis of the deposited data

Results flagged for a closer look

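In 4 of the 15 sets of libraries with counts (1 sum, 1 group and 1 site each), the highest library stood apart from the others. Chance flags about 1 in 20 sets of evenly spread values, a rate that is no guide for 3 of these 4, SI sets in which 3 to 7 libraries had no count. The unnamed sum in the LI of WT-ND replicate 4 was 5.09%, against 1.13% to 1.90% in the other 5 WT-ND libraries, and ASV_027 alone held 4.86% there. The mean without it was 1.38% ± 0.304, and the call of KO-WD against WT-ND mice was lost (adjusted p = 0.0717), although all 8 KO-WD libraries also lay below these 5. In the SI, the unclassified sum of KO-WD replicate 8 was 0.0287%, all of it ASV_026, while the other 7 KO-WD libraries had none. The unclassified sum of KO-ND replicate 5 was 0.210%, against at most 0.0393% in the other KO-ND libraries. The unclassified sum of WT-WD replicate 1 was 0.466% over 8 ASVs, against at most 0.132% in the other WT-WD libraries.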

How the results depend on the processing

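Values here are adjusted p-values of the sums or numbers of member ASVs called. With all 4 groups in 1 fit and with the stricter filter every call of a sum that could be tested was kept, and for the remaining alternatives, the fits that left out 1 library aside, the changes were as follows. Where a change is given, the cause was not tested, except that a filter changes how many taxa are tested and leaving out libraries lowers the number of samples.

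For KO-WD against WT-ND mice in the SI, the unclassified sum gave 0.121 with DESeq2 and 0.0781 with no filter. For KO-WD against WT-WD mice in the SI it gave 0.150 with DESeq2, 0.161 with the exact rank-sum test, 0.198 with limma on centred log ratios and 0.0577 with no filter. The unnamed sum gave 0.0664 with the exact rank-sum test for KO-WD against KO-ND mice in the SI, and for KO-WD against WT-WD mice in the LI it passed with DESeq2 (0.0331), the exact rank-sum test (0.0373) and limma (0.00881). Between LI and SI in KO-ND mice the unnamed sum gave 0.255 with DESeq2, 0.0739 with TMM factors, 0.258 with limma and 0.288 with no replicate block.

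The direction turned only in comparisons in which that sum had not passed. For the unclassified sum this was so in WT-WD against WT-ND mice in the SI (DESeq2 0.795, exact rank-sum test 0.784, limma 0.430), KO-ND against WT-ND mice in the LI (DESeq2 0.989, limma 0.772), KO-WD against KO-ND mice in the LI (DESeq2 0.810, TMM 0.890, limma 0.768), KO-WD against WT-WD mice in the LI (TMM 0.744) and the interaction in the SI (limma 0.963). For the unnamed sum it was so in KO-ND against WT-ND mice in the SI (exact rank-sum test 0.609, limma 0.759) and in the LI (DESeq2 0.534, TMM 0.938, exact rank-sum test 0.639, limma 0.208).

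The replicate number did not pair mice of different groups: deviations of same-numbered libraries correlated at -0.295 to 0.246. With it as a replicate block, 1 of 5 calls of a sum between groups was kept. The unclassified sum gave 0.157 and the unnamed sum 0.0949 for KO-WD against WT-ND mice in the SI, and the unnamed sum 0.0827 for KO-WD against KO-ND mice in the SI and 0.142 for KO-WD against WT-ND mice in the LI. It turned the direction of uncalled sums for WT-WD (0.742, unclassified) and KO-ND (0.716, unnamed) against WT-ND mice in the SI, and in the LI for KO-ND against WT-ND (0.908, unnamed), KO-WD against KO-ND (0.975, unclassified) and KO-WD against WT-WD mice (0.993, unclassified). With the replicate block the members called were 0 of 3 for KO-ND against WT-ND and 0 of 1 for KO-WD against KO-ND mice in the SI, and in the LI 1, 0, 4 and 2 in place of 8, 1, 9 and 5 for KO-WD against WT-ND, WT-WD against WT-ND, KO-ND against WT-ND and KO-WD against WT-WD mice.

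The numbers of members called were 2 for KO-WD and 3 for KO-ND against WT-ND mice and 1 for KO-WD against KO-ND mice in the SI. They moved to 18, 17 and 13 with no filter and to 0, 1 and 0 with the stricter filter. DESeq2, the exact rank-sum test and limma gave 0 for KO-WD against KO-ND mice, and DESeq2 and the exact rank-sum test 1 for KO-ND against WT-ND mice. For WT-WD against WT-ND mice DESeq2 called 1, and for KO-WD against WT-WD mice no filter gave 12 and the fit of all 4 groups 1. In the LI, no filter gave 53 for KO-WD against WT-ND, 60 for KO-ND against WT-ND, 64 for KO-WD against KO-ND and 47 for KO-WD against WT-WD mice, where the main numbers were 8, 9, 0 and 5. The stricter filter gave 2, 2 and 1, and the fit of all 4 groups 16, 16 and 12, for KO-WD against WT-ND, KO-ND against WT-ND and KO-WD against WT-WD mice. Limma called 1 for KO-WD against KO-ND mice. For WT-WD against WT-ND mice, DESeq2 and limma called 2, and the exact rank-sum test, no filter and the stricter filter 0. Between LI and SI, with 4, 9, 8 and 7 called in KO-WD, KO-ND, WT-WD and WT-ND mice, DESeq2 called 1, 3, 4 and 4 and the stricter filter 2, 2, 3 and 1. No filter gave 4, 0 and 0 in KO-ND, WT-WD and WT-ND mice, TMM factors 7 in KO-WD and 11 in WT-ND mice, and no replicate block 8 in KO-WD mice.

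Leaving out 1 library at a time, the unclassified sum ranged over 0.00521 to 0.0692 (KO-WD against WT-ND), 0.677 to 0.997 (WT-WD against WT-ND), 0.0370 to 0.346 (KO-WD against KO-ND) and 0.0254 to 0.0599 (KO-WD against WT-WD) in the SI. In the LI it ranged over 0.884 to 0.999 (KO-WD against KO-ND) and 0.623 to 1.000 (KO-WD against WT-WD), and the unnamed sum over 0.0110 to 0.0717 (KO-WD against WT-ND), 0.312 to 0.898 (WT-WD against WT-ND), 0.686 to 0.993 (KO-ND against WT-ND) and 0.0265 to 0.149 (KO-WD against WT-WD). Between sites in WT-ND mice the ranges were 0.0112 to 0.0991 (unclassified) and 0.0281 to 0.0991 (unnamed). Numbers of members called ranged over 1 to 2 (KO-WD against WT-ND), 0 to 1 (WT-WD against WT-ND), 1 to 3 (KO-ND against WT-ND) and 0 to 1 (KO-WD against KO-ND) in the SI. In the LI they ranged over 5 to 9 (KO-WD against WT-ND), 0 to 2 (WT-WD against WT-ND), 0 to 1 (KO-WD against KO-ND) and 2 to 6 (KO-WD against WT-WD), and between sites over 1 to 5 (KO-WD), 5 to 7 (WT-WD) and 0 to 9 (WT-ND).

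Thinning to 22550 counts left the mean number of unnamed ASVs in the SI of WT-ND mice at 2.83. Counts of 0 over the pooled libraries of a group allow shares of up to 0.00126% to 0.00166%.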
